A study of Mus musculus with 8 samples.

Results

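The ASB genes encode proteins with ankyrin repeats and a SOCS box, and 10 of them were described here in mouse quadriceps: Asb2, Asb5, Asb8, Asb10, Asb11, Asb12, Asb14, Asb15, Asb16 and Asb18. They were taken by name from the deposited tables, which hold 43239 distinct gene names, with the entry of highest mean where a name is repeated. The members were chosen by family and by their measured FPKM, being the 10 family genes with the highest mean here, and the genotype comparison of Asb14 was known as well, so both are given as descriptions. The family counts 18 genes in all, and the other 8 (Asb1, Asb3, Asb4, Asb6, Asb7, Asb9, Asb13 and Asb17) serve for comparison. RNA came from the quadriceps of 8 mice, all of them female and 6 months old, with 1 library each: 4 carried the genotype label wild type (WT) and 4 the label Mss51 knockout (Mss51-/-, KO). Both groups had free access to food and water. The strain and the way the allele was made are not given in the sources used here. The series title names metabolism of muscle as the subject. Values are FPKM (fragments per kilobase of transcript, scaled to the mapped fragments of the library), a unit that is per length and so allows levels of different genes to be set side by side.

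An ASB protein is the substrate-binding part of a ubiquitin ligase. Its ankyrin repeats hold the protein to be marked, and its SOCS box binds the elongin B and elongin C pair and the scaffold cullin 5, which carries the RING protein Rnf7 and recruits the enzymes that pass on ubiquitin. Several members of the family are known mainly from striated muscle. Asb2, the best studied of them, directs proteins of the cytoskeleton to the proteasome while muscle cells differentiate.

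Some facts of the series bear on every value. Mss51 stood at 22.9, 37.0, 27.5 and 24.8 FPKM in the libraries labelled WT and at 340, 201, 216 and 207 FPKM in those labelled KO, which goes against a loss of its RNA, so every direction below is that of the labels. A rough estimate of depth, from the lowest values of genes with a single transcript, ran from 35.6 to 56.4 M fragments per library. Among markers of muscle fibres, Ckm, the muscle creatine kinase, stood between 9230 and 12716 FPKM in the 8 libraries. Myh4, the myosin of the fastest fibres, was listed at 0 in every library and Tnnt3, the fast troponin T, in 4 of them, although quadriceps is rich in both, so a listed 0 in these files need not mean absent RNA. KO replicate 1 stood apart from the other libraries labelled KO in Mb and Myh2, while Myh7, the slow myosin (entered together with Myh6), was at 27.1 FPKM there against 29.9, 36.4 and 26.4 in KO replicates 2 to 4. Myoglobin, Mb, was at 1838 FPKM in KO replicate 1 against 4704, 3645 and 4010 in KO replicates 2 to 4 and 1624 to 1937 in the WT libraries. Results are therefore given with and without KO replicate 1 where it moves them.

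The sequences upstream of the members are shown for 4 genes, since they carry, close to their start sites, the same kind of element. The 10 members have 14 start sites in RefSeq (GRCm38.p6, the assembly named mm10 in the labels), and each window runs from 250 bases before the start to 50 after it. The binding motif of MEF2, a family of transcription factors of muscle, was found on either strand in 5 of the 14 windows, which belong to 5 members (Asb5, Asb12, Asb14, Asb16 and Asb18), against 3.19% of all 32851 windows in the table. In Asb14, Asb16 and Asb18 the match overlaps TTTATA, which is TATAAA read on the opposite strand and not in the direction of the gene. TATAAA, a sequence of core promoters, was found in 13.6% of all windows. The E-box CAGCTG was found in 4 of the 14 windows (Asb2, Asb5, Asb16 and Asb18) against 16.3% of all windows. The CArG box, the motif of serum response factor, was found in 2 (Asb2 and Asb5) against 1.63%. In Asb5 the MEF2 match belongs to a different start site from the CAGCTG and CArG matches. The end of the Asb5 window with the MEF2 match was found in no GENCODE transcript of the gene. In Asb2 the CAGCTG and CArG matches belong to different start sites. Capitals in the windows mark MEF2 matches and CAGCTG, the rest is in lower case.
Asb14, chr14:26894364-26894663, plus strand: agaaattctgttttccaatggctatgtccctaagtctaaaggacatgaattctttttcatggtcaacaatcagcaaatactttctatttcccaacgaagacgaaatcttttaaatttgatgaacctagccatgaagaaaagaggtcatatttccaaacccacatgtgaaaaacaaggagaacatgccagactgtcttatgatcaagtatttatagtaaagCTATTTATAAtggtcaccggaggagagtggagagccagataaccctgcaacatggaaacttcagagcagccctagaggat
Asb16, chr11:102268501-102268800, plus strand: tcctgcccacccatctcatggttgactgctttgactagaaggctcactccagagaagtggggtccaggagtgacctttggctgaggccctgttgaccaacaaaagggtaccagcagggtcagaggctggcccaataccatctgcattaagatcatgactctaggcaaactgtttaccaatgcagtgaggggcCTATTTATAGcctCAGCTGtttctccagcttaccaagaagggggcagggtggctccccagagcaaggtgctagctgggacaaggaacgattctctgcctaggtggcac
Asb18, chr1:90014617-90014916, minus strand: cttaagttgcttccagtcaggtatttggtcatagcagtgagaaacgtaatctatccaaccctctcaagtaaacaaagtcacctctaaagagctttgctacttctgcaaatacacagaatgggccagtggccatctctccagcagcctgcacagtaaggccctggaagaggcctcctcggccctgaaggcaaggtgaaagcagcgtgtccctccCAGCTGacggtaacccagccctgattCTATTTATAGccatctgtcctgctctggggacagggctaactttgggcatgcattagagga
Asb12, chrX:95478080-95478379, minus strand: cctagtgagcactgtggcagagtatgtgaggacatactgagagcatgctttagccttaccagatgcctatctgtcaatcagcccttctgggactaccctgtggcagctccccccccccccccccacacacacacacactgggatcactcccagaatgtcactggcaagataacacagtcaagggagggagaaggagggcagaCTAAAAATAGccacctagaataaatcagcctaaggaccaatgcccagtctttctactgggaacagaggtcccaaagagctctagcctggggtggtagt
With the start site counted as base 0, the MEF2 match begins at base -30 in Asb14, -58 in Asb16, -11 in Asb18 and -48 in Asb12. In Asb16 and Asb18 the E-box lies near it, at -45 and -37. No match to any of the 3 motifs was found in the windows of Asb8, Asb10, Asb11 and Asb15. These are matches of letters in reference sequence, with no binding measured.

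The 10 members were the 10 highest of the family, and 3 of them made up most of its RNA. Asb2 led every library with 392, 334, 381 and 283 FPKM in WT replicates 1 to 4 and 280, 283, 325 and 317 FPKM in KO replicates 1 to 4. Its mean over the 8 libraries was higher than that of 97.7% of the 11878 genes tested. Asb5, known from activated satellite cells and the growth of collateral arteries, was next with a mean of 191 FPKM. Asb11, whose zebrafish counterpart acts on Notch signalling in progenitor cells, followed with 176 FPKM. The ranges of Asb2 and Asb5 did not overlap, but those of Asb5 and Asb11 did, and their order held in 6 of 8 libraries. The 3 genes together held 70.2 ± 2.33% of the summed FPKM of the members in WT and 71.2 ± 1.83% in KO (SD, n = 4).

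A middle tier began with Asb14, a factor of 3.02 below Asb11. It held Asb14 (mean 58.4 FPKM), Asb8 (57.5), Asb16 (49.1), Asb10 (43.2), Asb15 (35.8) and Asb12 (26.3). Asb15 has been linked to the growth and differentiation of muscle cells, and Asb10 is known as a gene studied in glaucoma. Neighbours in this tier overlapped in their ranges, though Asb8 stood above Asb16, Asb16 above Asb10 and Asb10 above Asb15 in 8 of 8 libraries. Asb14 and Asb8 kept their order in only 4 of 8, namely the WT libraries. Asb18, whose entry in the files is joined with the homeobox gene Gbx2, closed the list at 15.6 FPKM, so its value cannot be split between these genes. With a mean of 13.01 FPKM, Asb13 lay just outside the list and below Asb18 in 7 of 8 libraries.

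The other ASB genes were low or listed at 0. Asb6 (7.45 FPKM), Asb4 (6.76), Asb3 (5.35), Asb1 (5.24) and Asb7 (3.50) were all tested, while Asb17 had a mean of 0.0380 FPKM and Asb9, an adaptor for creatine kinases, was listed at 0 throughout. The members carried 96.1 ± 0.328% of the family's summed FPKM in WT and 95.7 ± 0.213% in KO (SD, n = 4).

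**Figure D1:**
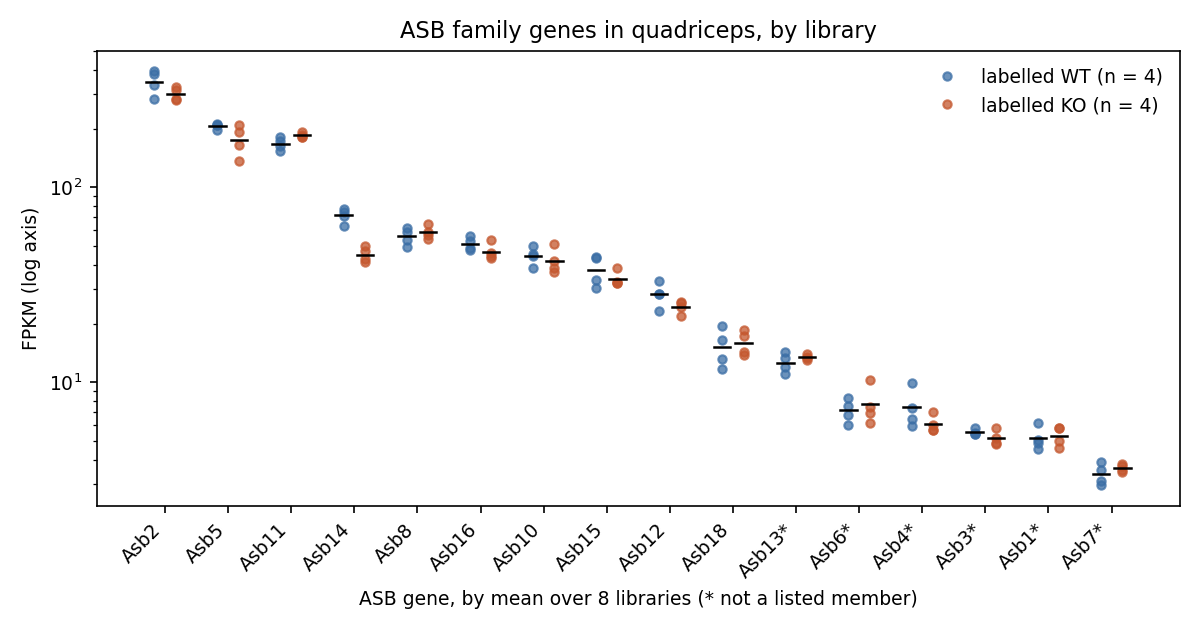
FPKM of the 16 ASB genes with a mean above 1 FPKM in each library, on a log axis; points are libraries (blue labelled WT, orange labelled KO, n = 4 each), black lines are group means, and an asterisk marks genes outside the list of members. Asb2, Asb5 and Asb11 lie above the rest, and Asb14 is the member whose groups stand farthest apart.

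Between the labelled genotypes, none of the 10 members passed the test over all genes. The test was limma on log2(FPKM + 0.5), run on the 11878 genes whose mean reached 1 FPKM, and all 10 members were among them. At an adjusted p under 0.05 it called 0 members and 0.0505% of all genes, all of these higher in the libraries labelled KO. At an unadjusted p under 0.05 it gave 1 member, Asb14, where all genes gave 10.3%. A log2 fold change below 0 (KO minus WT on the log2(FPKM + 0.5) scale, as throughout) was seen in 7 of 10 members and in 45.6% of all genes. The median over the members was -0.14, beside 0.02 over all genes tested, and ran from -0.19 without KO replicate 1 to -0.076 without WT replicate 2 when single libraries were left out. In bulk muscle, fewer fibres of a type and less RNA per fibre cannot be told apart.

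Asb14 was lower in every library labelled KO than in any labelled WT. It stood at 77.2, 74.6, 63.6 and 71.1 FPKM in WT replicates 1 to 4 and at 49.7, 41.3, 46.8 and 42.8 FPKM in KO replicates 1 to 4. The highest library labelled KO lay well below the lowest labelled WT. Of all genes tested, 1.61% were lower in this way without overlap. The means were 71.6 ± 5.90 and 45.1 ± 3.84 FPKM (SD, n = 4), which is a ratio of 1.59 and a log2 fold change of -0.66 (SE 0.09, 95% interval -0.86 to -0.46). In the fit over all genes its adjusted p was 0.0520, a value known when the gene was singled out and given as description. It took the smallest p of all genes that were lower in the libraries labelled KO and came 8th among all genes. As a share of the summed members, which a scaling common to all genes leaves alone, Asb14 held 7.004 ± 0.659% in WT and 4.86 ± 0.297% in KO (SD, n = 4). In each WT library it ranked next after Asb2, Asb5 and Asb11, and in each library labelled KO it stood below Asb8, at rank 5 to 7 of the members.

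The call of Asb14 lay so near the threshold that several settings decided it. It passed without KO replicate 1 (log2 fold change -0.71, adjusted p = 0.0134) and missed the threshold without any other single library, with adjusted p from 0.0582 to 0.235. It also passed with robust variances (0.0366), array weights (0.0450), genes listed at 0 left out (0.0380) and a minimum mean of 5 FPKM (0.0443). It missed with pseudocounts of 0.1 (0.0516) and 1 (0.0518), repeated names summed (0.0525) and quantile normalization (0.0556). No filter on low values (0.117) and the replicate number as a block (0.460) left it farther from the threshold. With each library set to the same total over named genes (a TPM-like scale), its log2 fold change was -0.87 where the median of all genes was -0.18, with an adjusted p of 0.9999, the highest over the alternatives, against 0.0134 as the lowest.

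**Figure D2:**
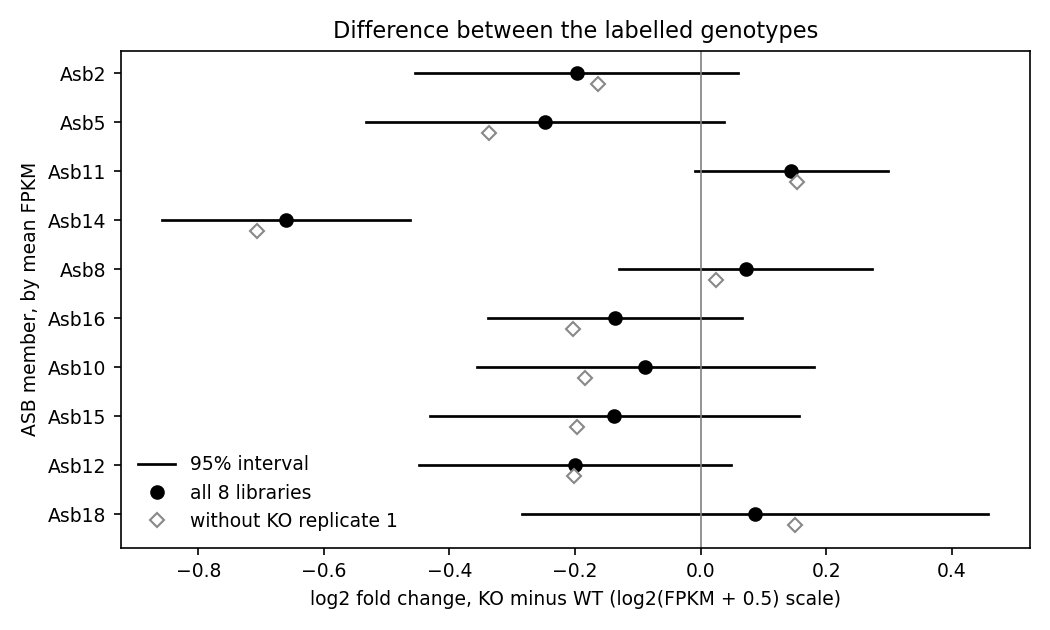
Log2 fold change of each member, KO minus WT, with all 8 libraries (black points, bars are 95% intervals of the limma fit) and without KO replicate 1 (open diamonds); members are ordered by mean FPKM. The interval of Asb14 alone lies off 0, and leaving out KO replicate 1 moves Asb5, Asb10, Asb14, Asb15 and Asb16 farther below 0. That library was the highest of its group in each of them.

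With the entry of highest mean for each name, Asb11 was the other member whose groups did not overlap, in the opposite direction and by a narrow margin. It stood at 180.3, 153.6, 172.3 and 163.4 FPKM in WT replicates 1 to 4 and at 181.5, 180.8, 186.2 and 190.9 FPKM in KO replicates 1 to 4. Its highest library labelled WT came within 1 FPKM of its lowest labelled KO. Among all genes, 3.89% were higher in the libraries labelled KO without overlap. The log2 fold change was 0.14 (SE 0.07, 95% interval -0.01 to 0.30, adjusted p = 0.513), and it became -0.069 on the TPM-like scale, which is 0.11 above the median of all genes in that setting. Its share of the members was 16.4 ± 1.04% in WT and 19.9 ± 0.942% in KO (SD, n = 4), with no overlap either, though shares of 1 sum move against each other.

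The more abundant Asb2 and Asb5 had negative values that did not pass. Asb2 gave -0.20 (95% interval -0.45 to 0.06, adjusted p = 0.596), with the lowest library labelled WT, replicate 4 at 283 FPKM, level with KO replicates 1 and 2. Asb5 was even in the WT group at 209, 208, 211 and 196 FPKM and uneven in the KO group at 209, 136, 165 and 192.8 FPKM. In this main entry of Asb5, KO replicate 1 alone of its group lay within the WT range. The log2 fold change of Asb5 was -0.25 (95% interval -0.53 to 0.04, adjusted p = 0.540) with all libraries and -0.34 (adjusted p = 0.250) without KO replicate 1. Without KO replicate 2 it was -0.13.

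The remaining members overlapped between the groups. Asb8 gave 0.07 (95% interval -0.13 to 0.27), Asb10 -0.09 (-0.36 to 0.18), Asb12 -0.20 (-0.45 to 0.05), Asb15 -0.14 (-0.43 to 0.16), Asb16 -0.14 (-0.34 to 0.07) and Asb18 0.09 (-0.29 to 0.46), with adjusted p from 0.571 to 0.891. These values moved with single libraries left out: Asb8 ran from 0.015 (without WT replicate 3) to 0.12 (without WT replicate 2), Asb10 from -0.18 (without KO replicate 1) to -0.027 (without KO replicate 2), Asb12 from -0.29 (without WT replicate 4) to -0.12 (without WT replicate 3), Asb15 from -0.23 (without WT replicate 3) to -0.060 (without WT replicate 2) and Asb16 from -0.20 (without KO replicate 1) to -0.091 (without WT replicate 2). For none of them does the interval reach the difference measured in Asb14. Asb8 and Asb18 had -0.14 and -0.12 on the TPM-like scale, which is 0.04 and 0.06 above the median of all genes there, and Asb18 had -0.026 without WT replicate 4.

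KO replicate 1 was the highest of its group in 6 of 10 members, where 24.2% of all genes tested were highest there. The 6 were Asb5, Asb8, Asb10, Asb14, Asb15 and Asb16. Asb16 read 53.6, 45.7, 43.1 and 44.6 FPKM in KO replicates 1 to 4, beside 52.9, 56.3, 48.7 and 47.5 FPKM in WT replicates 1 to 4. Asb10 read 50.8, 36.6, 42.0 and 38.4 FPKM beside 45.7, 49.8, 38.4 and 44.1. Asb15 read 38.3, 32.1, 32.7 and 32.4 FPKM beside 43.2, 43.7, 30.4 and 33.4. In Asb16, as in the main entry of Asb5, KO replicate 1 lay within the WT range while the other libraries labelled KO lay below it. Without KO replicate 1, 3 members (Asb5, Asb14 and Asb16) were lower with no overlap, against 4.51% of all genes. As that library was the highest of its group in each of the 3, leaving it out lowers them by construction. In that fit 1 member, Asb14, was called, against 1.05% of all genes.

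Mb and Myh2, among the genes in which KO replicate 1 stood apart, were at WT levels in that library and high in the others labelled KO. Myh2, the myosin of fast oxidative fibres, stood at 125 FPKM in KO replicate 1 against 494, 447 and 391 in KO replicates 2 to 4 and 96.6 to 156 in the WT libraries. The 6 markers of slow or oxidative fibres summed to 2117 to 2526 FPKM in the WT libraries and 2405 to 5613 FPKM in those labelled KO, none of them at 0, but Mb alone supplied most of each sum. The range of the libraries labelled KO lay within that of the WT libraries for Myh7 (26.4 to 36.4 within 23.04 to 41.5 FPKM), Tnni1 (58.8 to 73.1 within 39.9 to 78.3) and Tnnc1 (119 to 154 within 97.3 to 156). For the remaining markers, Myl2 and Tnnt1, the ranges overlapped but reached higher in the libraries labelled KO. Myl2 ran from 198 to 353 FPKM in WT and 272 to 876 in KO, Tnnt1 from 64.0 to 96.4 and 90.0 to 141. Asb14 stood at 49.7 FPKM in KO replicate 1, the highest of its group but below every WT library. The part of fibre make-up in the values of the members was not tested. Of the 12 marker lists for muscle and other cell types, the summed levels overlapped between the groups in each, though the highest marker weighs most in a sum. Pax7, a satellite cell marker of low level, did not overlap (0.908 to 1.42 FPKM in WT, 0.564 to 0.780 in KO). Myf5 and Vcam1 of the same list did.

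**Figure D3:**
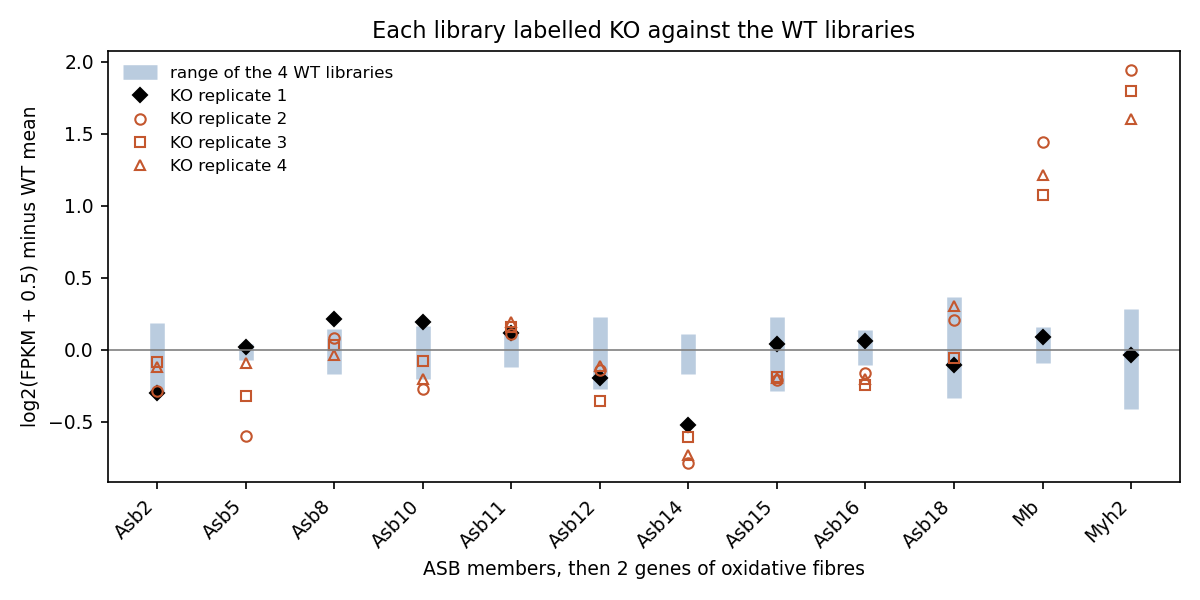
Each library labelled KO as log2(FPKM + 0.5) minus the mean of the WT libraries, for the 10 members and for Mb and Myh2; blue bars are the range of the 4 WT libraries, black diamonds are KO replicate 1, open symbols are KO replicates 2 to 4. For Asb14 all 4 lie below the WT range, from -0.52 to -0.78, while for Asb5 (main entry) and Asb16 only replicates 2 to 4 do.

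Asb5 is entered on 3 lines of the tables, and the second of these had a larger fold between the groups than its main entry, a difference of differences that was not tested. This was noticed after the values were seen. The second entry stood at 37.7, 44.5, 31.02 and 30.4 FPKM in WT replicates 1 to 4 and at 13.8, 9.72, 14.8 and 19.7 FPKM in KO replicates 1 to 4. The groups did not overlap, and KO replicate 1 was low together with the others, unlike in the main entry. The means were 35.9 ± 6.61 and 14.5 ± 4.09 FPKM (SD, n = 4). With every entry of a name fitted on its own (11976 entries tested), the log2 fold change was -1.31 (SE 0.20, 95% interval -1.77 to -0.84) and the adjusted p 0.150, so the entry did not pass. Leaving out single libraries gave -1.46 to -1.14 with adjusted p from 0.0551 to 0.449. On the TPM-like scale it was -1.52 and passed (adjusted p = 0.0176). The second entry held 14.8 ± 2.18% of the summed FPKM of the Asb5 entries in WT and 7.58 ± 1.41% in KO (SD, n = 4). That sum stood at 247, 252, 243 and 226 FPKM in WT replicates 1 to 4. In KO replicates 1 to 4 it was 222, 146, 180 and 213 FPKM, so KO replicate 1 lay just below the WT range. With repeated names summed, the limma fit gave Asb5 a log2 fold change of -0.36 (adjusted p = 0.401).

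Which transcript the second Asb5 entry counts is not given in the files. Named entries of a chromosome come in a pair of runs: on the 18 chromosomes with a single break in the order, the first run held 99.1% of the names that GENCODE M21 places on the plus strand and the second 99.3% of those on the minus strand. Asb5 lies on the plus strand (54529580 to 54587842), and its main entry is in the first run. The other entries are in the second run, that of the minus strand, and the third had a mean of only 0.263 FPKM. With the strand setting of the counting not stated, the share of sense and antisense reads in these entries cannot be told. Asb12 shows the same layout, with its main entry in the run of its own strand, the minus strand, and a minor one of 1.69 ± 0.192 FPKM in WT and 1.27 ± 0.271 in KO (SD, n = 4) in the other run.

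**Figure D4:**
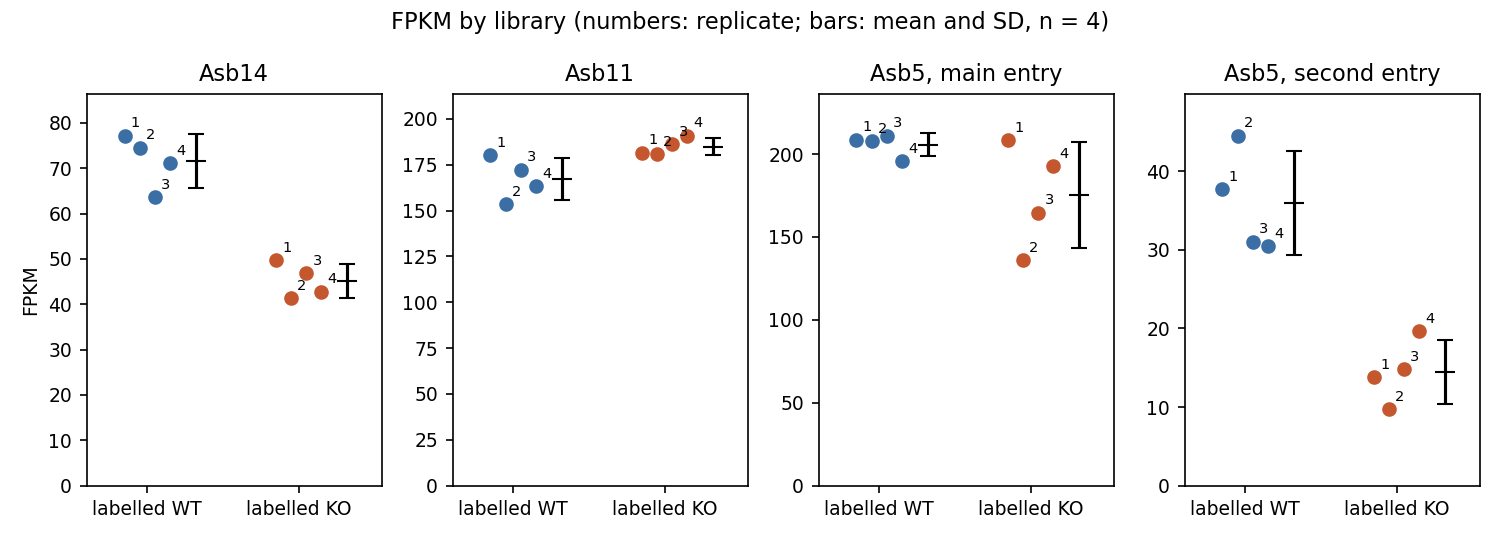
FPKM of Asb14, Asb11 and the main and second entries of Asb5 by library, with the replicate number beside each point and mean and SD (n = 4) as black bars; each panel has its own axis from 0. Asb14 and the second Asb5 entry separate the groups with all 4 libraries labelled KO low, whereas the main Asb5 entry has KO replicate 1 at the WT level.

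Asb14 (ENSMUSG00000021898) lies on the plus strand of chromosome 14 at 26894557 to 26915258 of mm10, 6.40 Mb from Mss51 (20482867 to 20496901) on the same chromosome. Its neighbour Appl1, an adaptor of adiponectin and insulin signalling, ends 3729 bases away on the opposite strand and is given the same locus in the files. Appl1 had a log2 fold change of 0.02 (9.60 ± 0.889 against 9.71 ± 0.317 FPKM, SD, n = 4). Within 1 Mb of Asb14, 0 of the 10 other tested genes passed, and 1, Slmap, had an unadjusted p under 0.05. Slmap, a tail-anchored membrane protein of muscle, stood at 21.2 ± 1.14 against 25.6 ± 2.27 FPKM (0.26, adjusted p = 0.353). Arf4, a small GTPase of vesicle traffic, and Pde12, a phosphodiesterase of mitochondria, gave -0.14 and -0.13. Gm22485, a small predicted gene, was listed at 0 in 7 libraries and at 3341 FPKM in KO replicate 4. Leaving Gm22485 aside, the other 9 ran from -0.14 to 0.26, all above the value of Asb14. On the whole of chromosome 14, 5 of the 400 other genes tested were at or below -0.66. Over all chromosomes 133 other genes were, among the 11878 tested.

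**Figure D5:**
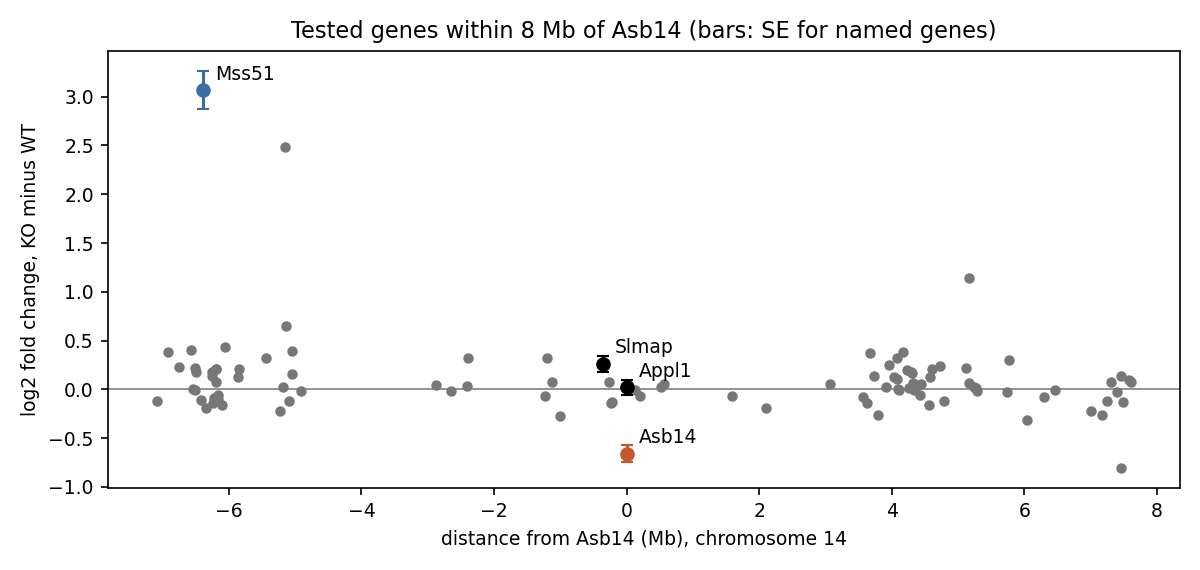
Log2 fold change (KO minus WT) of tested genes of chromosome 14 against their distance from Asb14, up to 8 Mb either way, with SE bars for the named genes; 2 genes with an SE of 1 or more are left out. Mss51 stands highest at 3.07, the genes next to Asb14 lie near 0, and 1 of the 100 others plotted lies below Asb14.

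The partners of the members in the cullin 5 ligase were well measured and none of the 6 passed, with 3 above and 3 below 0. Elongin B (Tceb2) was the highest at 472 ± 44.3 against 460 ± 27.8 FPKM, elongin C (Tceb1) stood at 85.7 ± 5.55 against 93.3 ± 12.1 and Rnf7 at 116 ± 15.5 against 127 ± 7.34 (SD, n = 4). Their log2 fold changes were -0.03, 0.11 and 0.13. Cul5 is joined with Acat1, a mitochondrial thiolase, in the files, so its value of 85.3 ± 2.48 against 95.9 ± 6.74 FPKM (0.17, unadjusted p = 0.0384, adjusted p = 0.453) cannot be split between them. Arih2, the ligase that works with neddylated cullin 5, gave -0.09. Among 21 genes that attach NEDD8 to cullins or remove it, 0 passed, with 10 above and 11 below 0. Cops7a, a subunit of the COP9 signalosome, which removes NEDD8, stood at 83.7 ± 6.11 against 68.0 ± 5.40 FPKM (-0.30, adjusted p = 0.347). The cullin exchange factor Cand1 gave -0.33, Dcun1d4, which promotes neddylation, -0.24 and Cops6 0.13. Of the other 7 cullins 0 passed, and Cul3, the scaffold of BTB adaptors, gave -0.20, Cul7 0.19, Cul2 0.07 and Cul4a 0.03.

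Other adaptors with a SOCS box did not pass either, 0 of 17, with 7 above and 10 below 0. Socs3, an inhibitor of cytokine signalling, was lower without overlap at 3.43 ± 0.277 against 2.54 ± 0.315 FPKM (-0.37, adjusted p = 0.353). Socs7 gave -0.19, Spsb2 0.26 and Neurl2, an adaptor of muscle that acts on beta-catenin, 0.24. Of 8 tested genes for proteins reported as ASB substrates, 0 passed. Hif1an, the asparagine hydroxylase that restrains HIF, gave -0.21 (adjusted p = 0.424), the brain-type creatine kinase Ckb -0.19 and desmin (Des) 0.07. In the list of 16 other ubiquitin ligases and adaptors of muscle 0 passed, with 9 above and 7 below 0. Park2, a ligase of mitophagy, gave 0.35 (adjusted p = 0.375), Fbxo40, which acts on IRS1, -0.15, the atrophy ligase Trim63 -0.25 and the nemaline myopathy gene Klhl40 0.09.

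The members did not vary together as 1 group. Over the 8 libraries the 45 pairs had Pearson r of log2(FPKM + 0.5) from -0.75 to 0.84, with a median of 0.24 and 25 of them above 0. By exact permutation of the libraries 6 pairs had a p under 0.05, and 0 did after adjustment over the 45 (smallest 0.336). Asb10, Asb15 and Asb16 had the highest values. Asb15 and Asb16 had r = 0.84 (exact permutation p = 0.0137) and Spearman rho 0.64 (exact permutation p = 0.0962), with r = 0.64 without the 2 libraries farthest in Asb15. Asb10 and Asb15 had r = 0.81 (exact permutation p = 0.0203) and rho 0.90 (exact permutation p = 0.00456), with r = 0.88 without the 2 farthest. Within the groups Asb10 and Asb15 had r = 0.89 (WT) and 0.95 (KO). At the other end stood Asb2 and Asb8, with r = -0.75 (exact permutation p = 0.0330) and rho -0.71 (exact permutation p = 0.0576), and with r = -0.38 without the 2 farthest. Within the groups Asb2 and Asb8 had r = -0.71 (WT) and -0.80 (KO). With each group centred on its own mean, the highest r of all pairs was 0.92, for Asb10 and Asb14. Their r over the 8 libraries without centring was 0.52. The libraries share their processing and differ in depth, and these values are descriptions. The median SD within groups, on the log2 scale, was 0.17 for the members and 0.14 for the 3845 tested genes in their range of levels.

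The tested genes whose pattern over the 8 libraries was most like that of Asb14 were Ndrg2, Arnt and Cog6, picked as the highest Pearson r among all genes and so given with no p. Ndrg2, a stress-responsive gene of muscle, had r = 0.98 (rho 0.95, and 0.77 with each group centred). Arnt, the partner of HIF factors, had r = 0.96 (rho 0.90, centred 0.58) and Cog6, of the Golgi tethering complex, r = 0.94 (rho 0.93, centred 0.71). Their differences were smaller than that of Asb14, at -0.19, -0.16 and -0.24. Most like Asb2 were the predicted gene RP24-317M4.6 (r = 0.97, rho 0.93), Tmtc1 (r = 0.97, rho 0.90) and Rasa2 (r = 0.96, rho 0.88), with centred values of 0.96, 0.95 and 0.95.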

How the data were processed

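Per the labels' protocols, the muscles were homogenized in TRIzol after freezing, mRNA was enriched with oligo(dT) beads and depletion of rRNA, and read pairs came from an Illumina instrument. The authors deposited 1 table of FPKM per library, per the file headers. The submitters' processing notes list Cufflinks 2.2.1, TopHat2 2.1.1 with Bowtie2 2.2.6, FastQC and the build mm10. The annotation, filters and strand setting are not given in the sources used here. Without counts, no counting interval is given. Entries without a gene name (2379 of 46036, with 65.8% to 93.2% of a library's summed FPKM) were left out, and 344 repeated names took the entry of highest mean.

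FPKM were used as deposited, as log2(FPKM + 0.5), for 11878 genes with a mean of at least 1. KO and WT were compared with limma 3.58.1 in R 4.3.3 (two-sided, with genotype as the sole term and a trend of the variance with the mean), adjusted by Benjamini-Hochberg over all genes tested with a threshold of 0.05. The fit was tested on simulated data. The p-values measure the spread between 4 mice a group. Members and lists were chosen with earlier results of these data known. Genes were named by rule: the ASB genes, Mss51, up to 4 genes of smallest p per list and within 1 Mb of Asb14, the 3 genes most like Asb14 and Asb2, and fibre genes. Appl1, Tceb2, Ckm and the second Asb5 entry were named after their values were seen, and Acta1 is not analysed here. A gene that the rule names among the substrates is not reported here. Alternatives were other pseudocounts (0.1 and 1), filters, scalings, variance estimates, treatments of repeated names, a block for the replicate number, and leaving out every library in turn. Fits of every entry on its own were added after the data were seen. Sequences are RefSeq windows on GRCm38.p6, with 10 of 10 members matched. Protein sequences were not used here, so the planned search for the SOCS box was not run.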

Additional observations from a re-analysis of the deposited data

Results flagged for a closer look

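In Asb15, KO replicate 1 stood at 38.3 FPKM, apart from the other 3 libraries labelled KO, of which the nearest was at 32.7. In Asb17, WT replicate 3 stood at 0.137 FPKM where the next library labelled WT was at 0.00894, a level at which the gene was not tested. In Mss51, KO replicate 1 stood at 340 FPKM with the next library labelled KO at 216. These were the 3 values, among 60 groups of 4 libraries looked at, whose gap to the nearest library took up nearly the whole range of the group. Chance alone gives about 1 such value in 20 groups.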

How the results depend on the processing

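Over 20 alternatives the 10 members gave 200 values, of which 191 kept their direction and their side of the threshold. The 5 that crossed it were all of Asb14, so that 1 member passed with array weights, with robust variances, with genes listed at 0 left out, at a minimum mean of 5 FPKM and without KO replicate 1 (0 to 1 over the libraries left out). The 4 values that changed sign were Asb8 (-0.14), Asb11 (-0.069) and Asb18 (-0.12) with each library set to the same total over named genes (TPM), and Asb18 (-0.026) without WT replicate 4, in a range up to 0.21 over the libraries left out. The rescaling moved the median of all genes to -0.18, and relative to that shift Asb8 (0.036), Asb11 (0.107) and Asb18 (0.056) stayed above 0. The median of the members was -0.35 on the same scale. The summed FPKM of named genes, on which it rests, ran from 620131 to 1678971 per library, with 4.26% to 54.9% of it on a single gene. The rescaling called 119 genes, 63 higher and 56 lower, where the deposited scale called 6 higher and 0 lower. Leaving out single libraries gave 4 to 125 genes, with 125 without KO replicate 1.

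Libraries with the same replicate number did not deviate together (correlations of -0.01, -0.08, -0.08 and 0.01), and 0 of 4 WT libraries correlated best with their own number. With so few libraries, these values cannot tell whether the numbers pair the mice weakly. With the replicate number as a block 0 genes were called, and Asb14 had the same log2 fold change with an adjusted p of 0.460. The second Asb5 entry had an adjusted p of 0.488 with that block.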
